A study of Mus musculus with 50 samples.

Results

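Among the segmented cells of mouse liver sections, 580 hepatocyte-sized cells with a high share of Neat1 and Vegfa transcripts were described. A cell was taken when it had at least 20 gene counts and an area of at least 10000 square pixels, when Neat1 plus Vegfa reached at least 4 counts and 4% of its gene counts, and when Ttr, Gc, Apoa1, Arg1, Fgg and Vtn together stayed under 12%. These were 580 of 49917 cells with at least 20 gene counts and of 27478 hepatocyte-sized cells, that is, cells that passed the count and area minimums alone. They are called Neat1-high cells here, and the other 26898 cells of the same size are the comparison.

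The livers came from mice on the C57BL/6 background, and both groups were given the virus AAV8-TBG-Cre when they were 6 months old. The TBG promoter drives Cre in hepatocytes. In the HIRA KO group the mice carried HIRA fl/fl alleles, so that Cre removed HIRA, a chaperone of the histone variant H3.3, from hepatocytes, whereas Control mice were wildtype (WT in the labels). The median lobe was collected 12 months later, at 18 months of age, and thin sections were imaged with the CosMx platform, which decodes single transcripts in place with a panel of 1000 gene targets and 10 negative probes. The 50 fields of view form 6 tissue areas, 3 of each group, and the labels tie no area to a named mouse. Hira was not among the targets, so the deletion could not be checked in these cells. Cell numbers were not shared between areas, since each cell has its own field of view and number (0 repeats). Each genotype was confined to its own side of the slide, so genotype and side of the slide cannot be told apart.

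Neat1 is a long noncoding RNA that stays in the nucleus, where it forms the scaffold of paraspeckles, bodies that hold RNA-binding proteins and some transcripts. Vegfa encodes the growth factor through which hepatocytes act on the neighbouring sinusoidal endothelium. Ttr, Gc, Apoa1, Fgg and Vtn encode transthyretin, vitamin D binding protein, apolipoprotein A-I, the fibrinogen gamma chain and vitronectin, which hepatocytes secrete, and Arg1 encodes arginase, an enzyme of the urea cycle.

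Neat1 carried the choice of most cells. Of the 580 cells, 516 had more Neat1 than Vegfa, 36 had more Vegfa and 28 had as many of both, and 164 had Neat1 without any Vegfa count. The rule would have been met by Neat1 alone in 294 cells and by Vegfa alone in 5. The median cell had 130 gene counts (48 to 542) and an area of 21773 square pixels, and its Neat1 and Vegfa transcripts made up 4.88% of its gene counts (at most 15.1%). There was no gap at the limit: 316 of them lay between 4% and 5%, while 788 cells with at least 4 such counts that met the area and secretory limits lay just below, between 3% and 4%. Few cells lay near the other limits. Secretory transcripts made up 10% to 12% in 32 Neat1-high cells and 12% to 14% in 7 cells left out by this limit alone, and 16 Neat1-high cells had areas under 11000 square pixels against 18 cells between 9000 and 10000 that failed on area alone.

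The limit on secretory genes set these cells apart from few others. In the Control areas 97.3% to 99.2% of hepatocyte-sized cells had under 12% of their counts in the 6 genes, and in the HIRA KO areas 78.6% to 92.7% did. Only 13 cells met the Neat1 and Vegfa criterion but failed the secretory one. Summed over cells, the 6 genes made up 3.74%, 4.02% and 4.96% of gene counts of Neat1-high cells in Control areas 1, 2 and 3, against 3.37%, 3.97% and 4.25% in the other hepatocyte-sized cells of the same areas. In HIRA KO areas 1, 2 and 3 they made up 5.27%, 5.26% and 7.71%, against 5.6%, 8.0% and 8.57%. The 6 genes were thus higher in Neat1-high cells in the Control areas and lower in the HIRA KO areas, but the 12% limit capped Neat1-high cells alone. Cells under the same limit that failed on Neat1 plus Vegfa had 3.31%, 3.85% and 4.01% in Control areas 1, 2 and 3. In HIRA KO areas 1, 2 and 3 they had 4.87%, 5.51% and 6.99%. Against these cells Neat1-high cells were higher in all Control areas and in HIRA KO areas 1 and 3, and lower in HIRA KO area 2. Since the rule used these genes, the values are given without a test.

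The rule's minimum on Neat1 plus Vegfa sets a floor under their sum in every area. Neat1 made up 3.8%, 4.29% and 4.0% of the gene counts of Neat1-high cells in Control areas 1, 2 and 3 and 4.31%, 3.36% and 3.32% in HIRA KO areas 1, 2 and 3. In the other hepatocyte-sized cells it made up 0.565%, 0.979% and 0.940% in the Control areas and 0.454%, 0.481% and 0.645% in the HIRA KO areas. Vegfa made up 1.19%, 0.688% and 1.22% of the counts of Neat1-high cells in Control areas and 1.02%, 1.28% and 1.43% in the HIRA KO ones, and the other cells of the 6 areas had 0.224% to 0.314%. The Neat1-high cells of Control area 3 held 24.1% of all Neat1 counts of hepatocyte-sized cells there, whereas those of HIRA KO area 2 held 1.96%.

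Markers were compared to check the name hepatocyte. Of the 10 hepatocyte markers on the panel, which all had counts in Neat1-high cells, 6 are the secretory genes of the rule and cannot serve as a check. The other 4 (Glul, Serpina1a, Apoe and Azgp1) summed to 13385 to 21397 CPM (counts scaled to a total of 1000000 gene counts) in Neat1-high cells, to 18287 to 25465 CPM in the other hepatocyte-sized cells and to 15443 to 20613 CPM in cells under 10000 square pixels. Neat1-high cells lay below the other hepatocyte-sized cells in all 6 areas and below the smaller cells in 3 of 6. The 4 markers made up at least 5% of the counts, with 5 counts or more, in 1.21% of Neat1-high cells, 3.91% of the other hepatocyte-sized cells and 3.07% of the smaller cells. Markers independent of the rule thus did not set these cells apart as hepatocytes, and they are called by the rule. By the same limits, stellate markers were high in 2 and erythroid markers in 1 of the 580 cells, and Kupffer, endothelial, biliary, myofibroblast, T/NK, B/plasma and neutrophil markers in 0. Each 0 of 580 allows a share of up to 0.517%. The 5 Kupffer markers, none of them at 0, summed to 2890 to 5131 CPM in Neat1-high cells and to 6356 to 11339 in the other hepatocyte-sized cells. Segmented cells of a section overlap with their neighbours, and no doublet caller was run.

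Neat1-high cells were fewer in every HIRA KO area than in any Control area. They made up 1.55% (95% Wilson interval 1.25 to 1.93), 3.24% (2.77 to 3.79) and 6.77% (6.03 to 7.60) of hepatocyte-sized cells in Control areas 1, 2 and 3, with 80, 149 and 268 cells. In HIRA KO areas 1, 2 and 3 they made up 0.872% (0.638 to 1.19), 0.367% (0.235 to 0.572) and 0.607% (0.411 to 0.894), with 39, 19 and 25 cells. The intervals cover counting error only. The mean share was 3.86% ± 2.66 (SD, n = 3 areas) for Control and 0.615% ± 0.253 (SD, n = 3 areas) for HIRA KO, a 6.27-fold difference, with p = 0.1 in an exact two-sided permutation test, the smallest that 3 against 3 areas can give. Of all cells with at least 20 counts they were 2.32% ± 1.41 and 0.301% ± 0.102 (SD, n = 3 each, exact permutation p = 0.1). The size of the difference rested in part on Control area 3, which held 46.2% of all Neat1-high cells: without it the Control mean was 2.40% and the ratio 3.9-fold. Since this share was known before the test, the p-value is a description of these areas.

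**Figure D1:**
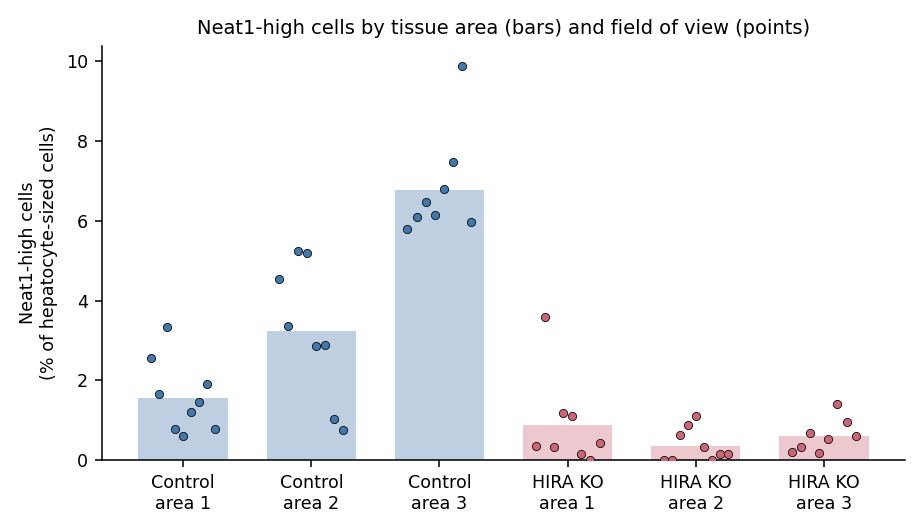
Share of Neat1-high cells among hepatocyte-sized cells (y axis, percent) in the 3 Control and 3 HIRA KO tissue areas (x axis). Bars give the share of the whole area and points its single fields of view. All 3 HIRA KO bars, 0.367% to 0.872%, lie below the lowest Control bar of 1.55%.

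Within areas the cells were spread over many fields of view. All 25 Control fields held some, and in Control area 3 the lowest field had 5.80% and the highest 9.89%. The fields ran from 0.613% to 3.34% in Control area 1 and from 0.752% to 5.23% in Control area 2, so single fields overlapped between the groups. In HIRA KO area 1, 20 of the 39 cells (51.3%) lay in 1 field at 3.58%, and without it the area had 0.485%. No Neat1-high cell was found in 1 field of that area and 3 of HIRA KO area 2, where 0 of 463 to 591 hepatocyte-sized cells allows a share of up to 0.508% to 0.648%.

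Depth differed between the groups. The other hepatocyte-sized cells had 5.34 to 8.24 counts per 1000 square pixels in Control areas and 8.89 to 10.1 in HIRA KO areas. Each cell with at least 60 gene counts was thinned to 60 before the rule was applied, and 346 cells qualified. Their shares of hepatocyte-sized cells were 2.38% in Control and 0.487% in HIRA KO. This 4.88-fold difference again came with no overlap of areas (exact permutation p = 0.1). At 60 counts the rule's minimum count of Neat1 plus Vegfa is a larger share than its percent limit. The rule was thus stricter for deeper cells, and the 4.88-fold difference does not show the main rule at equal depth. Thinning left out cells under 60 counts, so that 4920 to 5962 cells per Control area and 6338 to 8098 per HIRA KO area remained.

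Neat1-high cells had large nuclei for their size. The median nucleus took up 23.5%, 21.7% and 22.8% of cell area in Control areas 1, 2 and 3 and 25.6%, 26.4% and 25.8% in HIRA KO areas 1, 2 and 3. In the other hepatocyte-sized cells of these areas it took up 18.7%, 17.8% and 17.9%, and 22.1%, 22% and 18.9%. The value was higher in Neat1-high cells in 6 of 6 areas, by 4.73 percentage points ± 1.17 (SD, n = 6 areas). The nucleus itself was larger too, by 652 square pixels ± 251 (SD, n = 6), with medians of 4624 to 5347 against 4038 to 4552. For 17 measures compared in this way, an exact two-sided sign-flip permutation test over 6 areas cannot go below 0.031. Both nuclear measures reached that value, which became 0.0664 after Benjamini-Hochberg adjustment over the 17, so neither passed a threshold of 0.05. The rule counts Neat1 and Vegfa, whose transcripts were mostly nuclear in the other cells too (89.6% and 77.5%). Nucleus size, the nuclear part of transcripts and the DAPI stain are thus not independent of the rule. How far the rule itself gives these differences was not tested.

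A larger part of all transcripts lay in the nucleus of these cells, as the deposited positions assign them. For all targets outside the rule, 56.6%, 57.8% and 52.4% of transcripts were nuclear in Control areas 1, 2 and 3 and 49.4%, 53.3% and 56.7% in HIRA KO areas 1, 2 and 3. In the other hepatocyte-sized cells 51.2%, 51.6% and 41.4%, and 43.5%, 45.5% and 41.1%, were nuclear. The difference was 8.64 percentage points ± 3.98 (SD, n = 6), higher in 6 of 6 areas (exact sign-flip p = 0.031, adjusted p = 0.0664). Against cells whose nucleus took up a like part of the cell, within the middle 50% of the Neat1-high cells of the area, it was 1.85 points with an adjusted exact p of 0.398.

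Neat1 and Vegfa transcripts were themselves mostly nuclear. In Neat1-high cells 95.3% ± 1.54 (SD, n = 6 areas) of Neat1 and 85.0% ± 3.43 of Vegfa transcripts lay in the nucleus, against 89.6% ± 3.10 and 77.5% ± 2.21 in the other cells. Both were higher in 6 of 6 areas, by 5.72 and 7.5 percentage points (exact sign-flip p = 0.031, adjusted p = 0.0664 each). Since Neat1 and Vegfa counts chose the cells, the p-values for these 2 genes, also those between genotypes, are a description of these areas. At matched nucleus percent the differences were 2.76 and 2.19 points (exact adjusted p = 0.177 and 0.413). In the other hepatocyte-sized cells the nuclear part of Neat1 was 92.3% ± 0.699 in Control and 86.8% ± 0.955 in HIRA KO areas (SD, n = 3 each), without overlap (exact permutation p = 0.1). In Neat1-high cells it was 95.4% ± 1.39 and 95.1% ± 1.98, which overlapped (exact permutation p = 0.9). The gap between the 2 kinds of cell differed between genotypes with an exact permutation p of 0.1, before adjustment over the measures.

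The stains that accompany the transcripts differed in the same areas. The mean DAPI stain, which marks DNA, was 0.39 higher on the log2 scale ± 0.11 (SD, n = 6), and higher in 6 of 6 areas. The mean B2M stain, which marks the cell membrane through the light chain of MHC class I, was 0.48 lower ± 0.26, and the CD45 stain, a marker of leukocytes, 0.25 lower ± 0.10, each in 6 of 6 areas (exact sign-flip p = 0.031, adjusted p = 0.0664 for all 3 stains). At matched nucleus percent the DAPI difference was 0.17 (exact adjusted p = 0.177). Against cells with secretory genes at 12% or more, B2M differed by -0.22 and CD45 by -0.03 (exact adjusted p = 0.338 and 0.697). Control areas 1, 2 and 3 held only 43, 66 and 102 such cells that failed on Neat1 plus Vegfa. PanCK and CD3 stains differed by -0.01 ± 0.08 and -0.02 ± 0.06 and were lower in 4 of 6 areas (exact adjusted p = 0.885 and 0.721). The values are per area medians of stain intensity as deposited, and any background subtraction is not given in the sources used here.

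**Figure D2:**
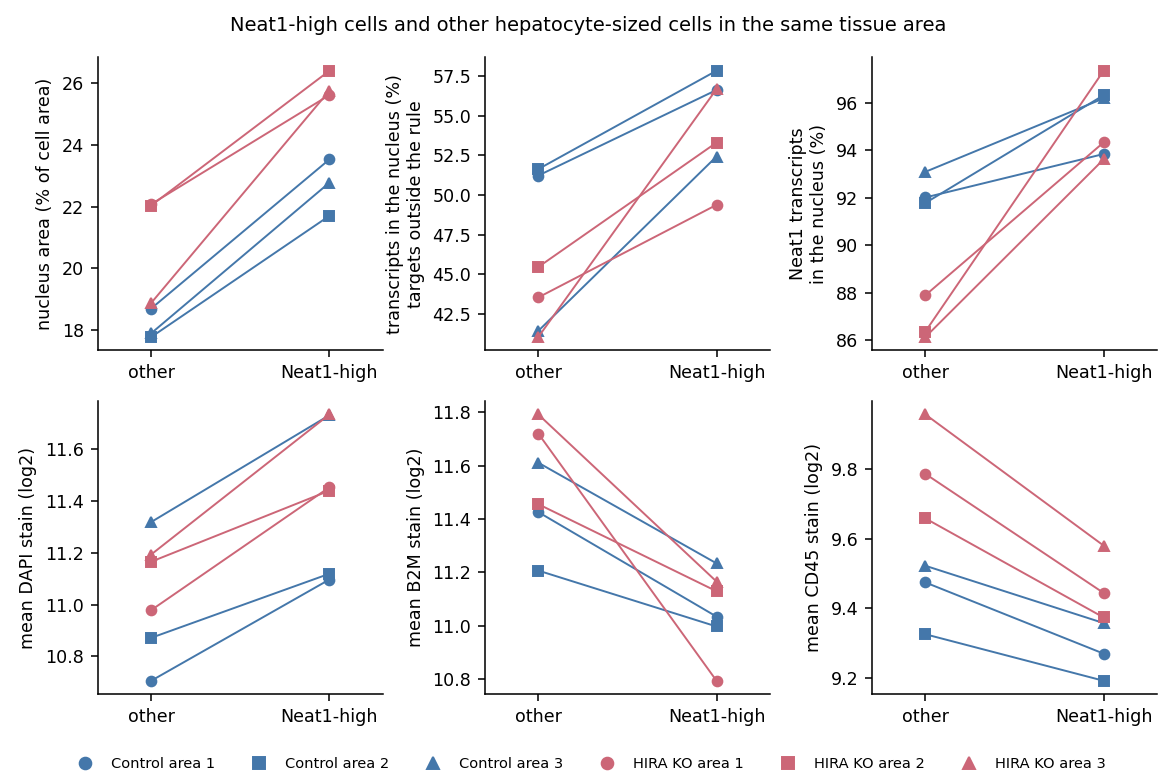
Each line joins the other hepatocyte-sized cells and the Neat1-high cells of 1 tissue area, Control in blue and HIRA KO in red. The y axes give nucleus area as a percent of cell area, the percent of transcripts and of Neat1 transcripts in the nucleus, and log2 mean intensities of the DAPI, B2M and CD45 stains. The first 4 measures are higher and the last 2 lower in Neat1-high cells in 6 of 6 areas.

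The share of Neat1-high cells was also read at like nucleus size. Where the nucleus took up 25% or more of cell area, 2.76%, 4.72% and 12.7% of hepatocyte-sized cells were Neat1-high in Control areas 1, 2 and 3 and 1.24%, 0.512% and 1.48% in HIRA KO areas 1, 2 and 3. Between 20% and 25% the shares were 2.40%, 5.16% and 10.5% in Control areas 1, 2 and 3 and 0.602%, 0.455% and 0.568% in HIRA KO areas 1, 2 and 3. The means of this band were 6.01% and 0.542% (exact permutation p = 0.1), and the band of 25% or more lay above it in 5 of 6 areas. No HIRA KO area reached a Control area in the 3 upper bands. Under 15%, HIRA KO areas 2 and 3 had 0 of 1047 and 0 of 1287 cells, which allows up to 0.287% and 0.233%, and HIRA KO area 1 with 0.501% lay above Control area 1 with 0.437%. Nuclei of 25% or more of cell area were found in 18.9% to 21.8% of hepatocyte-sized cells of Control areas and in 23% to 37.8% of those of HIRA KO areas.

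**Figure D3:**
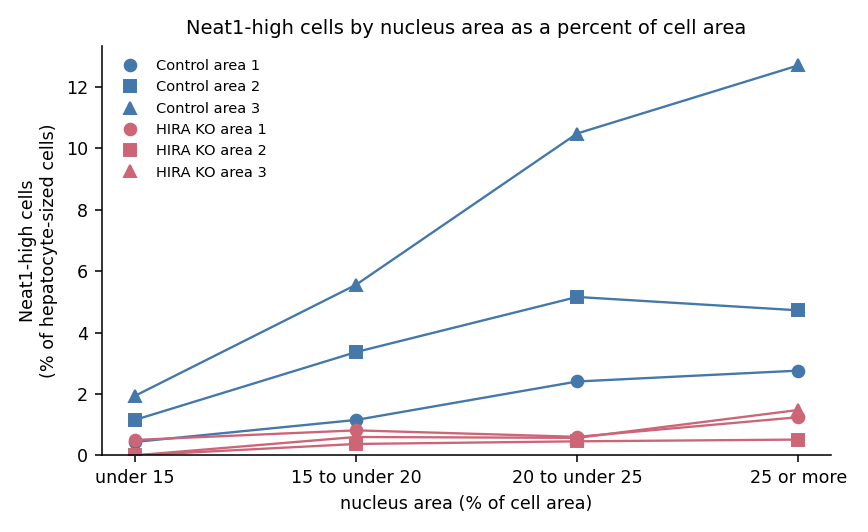
Share of Neat1-high cells among hepatocyte-sized cells (y axis, percent) in 4 bands of nucleus area as a percent of cell area (x axis), with 1 line for each tissue area. In Control areas the share is lowest under 15%, and from 15% upward the 3 HIRA KO lines, at 0.369% to 1.48%, lie below the Control lines of the same band.

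Among genes outside the rule, transcripts of 2 strongly detected genes were higher and those of 10 lower in Neat1-high cells in all 6 areas. This holds for the 36 genes whose level was over 4 times that of the highest negative probe (5.56% and 27.8% of them). Of the 448 genes above the highest negative probe 4.02% were higher and 4.91% lower in all 6 areas, and of all genes outside the rule 2.42% and 4.64%. Levels here are CPM scaled to the counts of the targets outside the rule alone, and ratios are log2 means over areas with a pseudocount of 50 CPM. Since the cells were chosen by gene counts, these values are a description without a test. Clec2d, which encodes a C-type lectin-like surface protein, had 7944, 6338 and 14930 CPM in the Neat1-high cells of Control areas 1, 2 and 3 and 5967, 10561 and 15758 in HIRA KO areas 1, 2 and 3. In the other cells it had 5117, 5529 and 8461, and 4514, 5534 and 8909. Every Neat1-high value exceeded that of its own area, with a log2 ratio of 0.63 ± 0.28 (SD, n = 6), although the areas overlapped between the 2 kinds of cell. H2-Q10, a soluble MHC class I molecule made by the liver, had a log2 ratio of 0.55 ± 0.24.

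The 10 lower genes are of 2 kinds by what they are known for. Cd74, the invariant chain of MHC class II, had 330 to 3030 CPM in Neat1-high cells against 1985 to 6624 in the other cells (log2 ratio -1.54 ± 0.95, SD, n = 6). H2-Ab1, another MHC class II gene, C1qb, a complement gene of Kupffer cells, and Igfbp7, a secreted IGF-binding protein, had log2 ratios of -1.07, -1.10 and -0.90. These genes are typical of non-hepatocyte cells. The summed Kupffer, endothelial and stellate markers were lower in Neat1-high cells in 6 of 6 areas too, and their part in these differences was not tested. The other genes are used by hepatocytes too: B2m (-1.02 ± 0.41), the membrane protein gene Itm2b (-0.90), the actin-binding profilin Pfn1 (-0.56), the MHC class I gene H2-K1 (-0.47), and the apolipoprotein genes Apoe (-0.43 ± 0.22) and Apoc1 (-0.34 ± 0.26). B2m transcripts and B2M stain were thus both lower in these cells in 6 of 6 areas. Against cells with a nucleus of like percent of cell area, Clec2d and H2-Q10 remained higher in 6 of 6 areas (0.48 each) and 9 of the 10 genes lower in 6 of 6, while Apoc1 was lower in 5 of 6 (-0.18). Against hepatocyte-sized cells with secretory genes at 12% or more, H2-Q10 was higher in 2 of 6 areas (-0.08) and Clec2d in 5 of 6 (0.63), and Cd74, C1qb, H2-Ab1 and Igfbp7 were lower in 4 of 6 (-0.51 to -0.15), while the other 6 were lower in 6 of 6. Of such cells that failed on Neat1 plus Vegfa, Control areas 1, 2 and 3 held only 43, 66 and 102, so their ratios rest on few cells.

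The lower genes were mostly those whose transcripts lie outside the nucleus. Over the 448 genes with a level above the highest negative probe, Pearson's r between a gene's nuclear percent in the other hepatocyte-sized cells and its log2 ratio was 0.33 and Spearman's rho 0.25. This is a description across genes, which share the same cells and are not independent replicates, and r ran from 0.08 to 0.37 in single areas. Of the 112 genes with the lowest nuclear percents, 19.2% to 42.6%, 19 were lower and 2 higher in all 6 areas, with a median log2 ratio of -0.14. Of the 112 with the highest, 53.6% to 77.5%, 0 were lower and 8 higher in all 6 areas, with a median of 0.08. Apoc1 and Apoe transcripts were 19.2% and 22.6% nuclear in the other cells, against 75% for Clec2d and 55.0% for H2-Q10. Against cells matched on nucleus percent, r was 0.23 and the medians of these groups were -0.09 and -0.00.

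**Figure D4:**
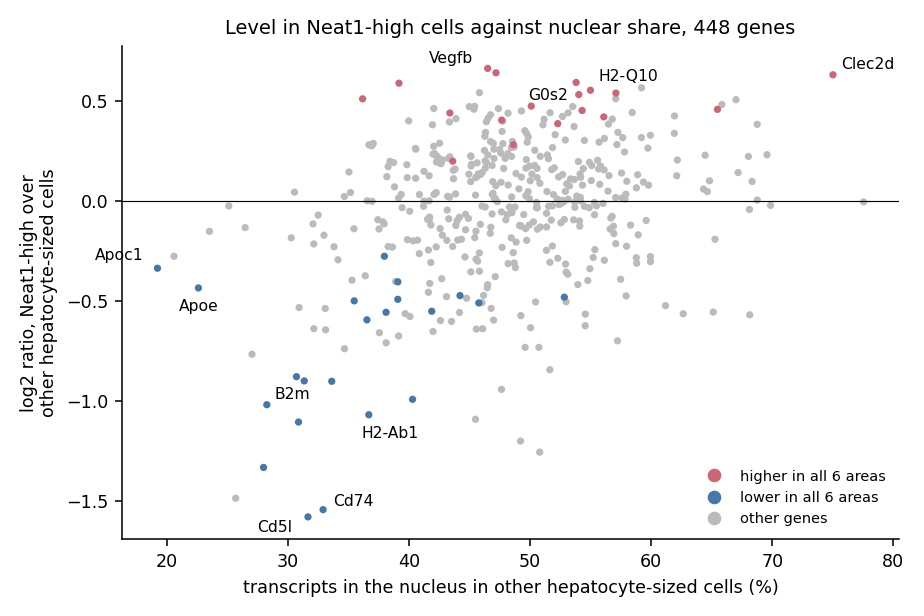
Each point is 1 of 448 genes outside the rule. The x axis gives the percent of its transcripts in the nucleus of the other hepatocyte-sized cells, and the y axis the mean over 6 areas of its log2 ratio, Neat1-high over other hepatocyte-sized cells. Genes lower in all 6 areas (blue) lie mostly at low nuclear percents, among them Apoc1 at 19.2% and Apoe at 22.6%, whereas Clec2d lies at 75%.

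The gene lists gave few further differences, and their counts stand beside the 2.42% higher and 4.64% lower of all genes outside the rule. Of the 10 VEGF ligands and receptors outside the rule, of which 5 were above the highest negative probe, 1 was higher in all 6 areas and 0 lower. The median log2 ratio of the list was -0.38, against -0.11 over all genes outside the rule, while its summed level had a mean log2 ratio of 0.07 and was higher in 4 of 6 areas. The 1 gene was Vegfb, which encodes a ligand of the receptor Flt1, with 1980 to 3667 CPM in Neat1-high and 1596 to 1769 in the other cells, so the 2 kinds of cell did not overlap (0.66 ± 0.31). Of the endothelial receptors of VEGF, Kdr was lower in 5 of 6 areas (-0.46 ± 0.59, below the highest negative probe), and Flt1 was higher in 4 of 6 with 0 counts in HIRA KO area 1. Of 6 hypoxia and glycolysis genes 1 was higher in all 6 areas, the stress-responsive gene Ndrg1 (0.39 ± 0.25), and the list median was 0.09. Of 26 receptors and nuclear receptors, 4 were higher in all 6 areas and 0 lower (median -0.05), among them the glucocorticoid receptor gene Nr3c1 (0.59) and the oestrogen receptor gene Esr1 (0.40). Pooled over Neat1-high cells these 2 genes had 1054 and 920 CPM, near the 867 CPM of the highest negative probe. Rara, another of the 4, lay below that probe at 614 CPM. Fgfr3, the remaining gene of the 4, lay above it at 1521 CPM (0.42 ± 0.38).

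Meg3, the other nuclear noncoding RNA on the panel, had a log2 ratio of -0.36 ± 0.31 (lower in 5 of 6 areas), at a level below the highest negative probe. Of the 8 other hepatocyte genes, 0 were higher and 2 lower in all 6 areas, namely Apoe and Apoc1, and Glul, the glutamine synthetase of hepatocytes around central veins, was lower in 5 of 6 (-0.64 ± 0.48). Heat shock, acute phase, immediate early, antioxidant and proliferation genes (6, 5, 9, 6 and 5 on the panel) had 0 genes in 1 direction in all 6 areas, with list medians of -0.01, 0.16, -0.11, -0.06 and -0.02. The list of ribosome and ATP synthase genes had 2 genes on the panel, both of ATP synthase. Atp5e was lower in all 6 areas, with 0 counts in HIRA KO area 2, and Atp5b was lower in 4 of 6 (-0.21 ± 0.35).

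Lipid genes, a list added after their values had been seen, were uneven between areas. G0s2, which encodes an inhibitor of adipose triglyceride lipase, was higher in all 6 areas (0.53 ± 0.27), and Sqle, an enzyme of cholesterol synthesis, was so too (0.66 ± 0.25) at a level below the highest negative probe. Insig1, which holds the sterol-sensing SREBP machinery in the endoplasmic reticulum, had 8271 CPM in Neat1-high cells of Control area 3 against 4349 in the other cells there. In the remaining areas it had 1492 to 3178 against 2164 to 2950, and over all areas its log2 ratio was 0.05 ± 0.49. The levels pooled over all areas, 5055 and 2755 CPM, thus differed mainly through Control area 3.

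Genotype differences within Neat1-high cells were tested on counts summed per area, which held 3363 to 37285 gene counts. None of the 124 genes tested outside the rule passed an adjusted p of 0.05 in edgeR's quasi-likelihood test (percent called 0), 5 had an unadjusted p under 0.05, and DESeq2 called 0 as well, with 4 under 0.05. The lowest adjusted p was 0.216. In the other hepatocyte-sized cells 1 of 990 genes passed (0.101%), Igha, an immunoglobulin gene of plasma cells (log2 fold change 1.17). Scaled to the targets outside the rule, Igha had 427 to 507 CPM there in Control areas and 921 to 1153 in HIRA KO areas. Its Control values lay below the highest negative probe of those cells, at 661 CPM. The interaction between genotype and kind of cell had a lowest adjusted p of 0.324 and called 0 of 124 genes, with 8 at an unadjusted p under 0.05. The median standard error of a log2 fold change in Neat1-high cells was 0.39.

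The 5 genes with the lowest p are given as values, chosen after they were seen, in CPM scaled to all gene counts. Cxcl1, a chemokine for neutrophils, had 335, 555 and 805 in Control areas 1, 2 and 3 and 1556, 2379 and 1945 in HIRA KO areas 1, 2 and 3 (log2 fold change 1.52, SE 0.54, edgeR adjusted p = 0.216), on 7 to 11 counts in each HIRA KO area. Itgam, the myeloid integrin CD11b, lay at 644 to 892 in Control and 1415 to 2081 in HIRA KO (1.28, SE 0.54, edgeR adjusted p = 0.463), on 7 to 9 counts in each HIRA KO area. The Control values of Cxcl1 and Itgam lay near or below the highest negative probe. That probe had 867 CPM in Neat1-high cells, scaled to the targets outside the rule. St6gal1, a sialyltransferase of the liver, had 1562, 2051 and 2038 against 222, 892 and 1238, the lowest on 1 count (-1.32, SE 0.45, edgeR adjusted p = 0.216). Spry4, an inhibitor of receptor tyrosine kinase signalling, lay at 1448 to 1965 against 707 to 1189, on 4 counts in each HIRA KO area (-1.01, SE 0.46, edgeR adjusted p = 0.533). In these 4 genes the areas of the 2 genotypes did not overlap. In the other hepatocyte-sized cells Cxcl1 had a log2 fold change of 0.62 (edgeR adjusted p = 0.323). Itgam, St6gal1 and Spry4 had 0.01, 0.001 and -0.13 there. Of the 124 genes, 14 had all HIRA KO areas above all Control areas (11.3%) and 6 below (4.84%).

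Insig1 was the remaining gene of the 5 and the lipid gene with the lowest p. It had 2900, 2093 and 7429 CPM in Control areas 1, 2 and 3 against 1334, 2081 and 2476 in HIRA KO areas 1, 2 and 3, and the groups overlapped (-1.18, SE 0.38, edgeR adjusted p = 0.216). It passed the threshold when Control area 1 was left out (-1.43, edgeR adjusted p = 0.00522). Tlr3, a receptor for double-stranded RNA, was not among the 124 genes of the main fit. It passed when HIRA KO area 1 was left out and 288 genes were tested (-3.64, edgeR adjusted p = 0.0175). That fit rested on HIRA KO areas 2 and 3, with 3363 and 5655 gene counts in Neat1-high cells. In the other hepatocyte-sized cells Insig1 had a log2 fold change of -0.30 (edgeR adjusted p = 0.782).

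No gene of the lists passed in either direction. The 8 other hepatocyte genes had a median log2 fold change of 0.05, against 0.04 over the 124 genes, and the gene with the lowest p was Selenop, a secreted selenium carrier, at 4573 to 8288 CPM in Control and 8326 to 10787 in HIRA KO (0.45, SE 0.30, edgeR adjusted p = 0.744). The antioxidant enzyme gene Gpx1 (0.43), the lactate dehydrogenase gene Ldha (0.59) and Apoe (0.43) lay above all Control areas in all HIRA KO areas, each with an edgeR adjusted p of 0.744. Selenop, Gpx1, Ldha and Apoe went the same way in the other hepatocyte-sized cells, with log2 fold changes of 0.90, 0.73, 0.48 and 0.59. Vegfb (-0.22), the fatty acid synthesis regulator Srebf1 (-0.46), Igf1 (-0.52) and the Kupffer gene C1qb (-0.75) had values below 0, with edgeR adjusted p of 0.744 to 0.866. Their values in the other hepatocyte-sized cells were 0.02, 0.03, 0.19 and 0.05. Of the lists for acute phase, immediate early, endothelial, myofibroblast, B/plasma, neutrophil and erythroid genes, 0 genes had enough counts to be tested.

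Genes of the rule were fitted but are given as description, since they chose the cells. Ttr had 17847, 20764 and 27759 CPM in the Neat1-high cells of Control areas and 30896, 28843 and 51989 in those of HIRA KO areas, a log2 fold change of 0.68 (SE 0.25) beside 1.33 in the other hepatocyte-sized cells. Apoa1 went the other way, at 3458, 3845 and 5176 against 2445, 2974 and 2476 (-0.76, SE 0.37), beside 0.27 in the other cells. Neat1 and Vegfa differed by -0.18 (SE 0.24) and 0.22 (SE 0.29), Gc by 0.36, Vtn by 0.79, Fgg by 0.18 and Arg1 by 0.02.

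**Figure D5:**
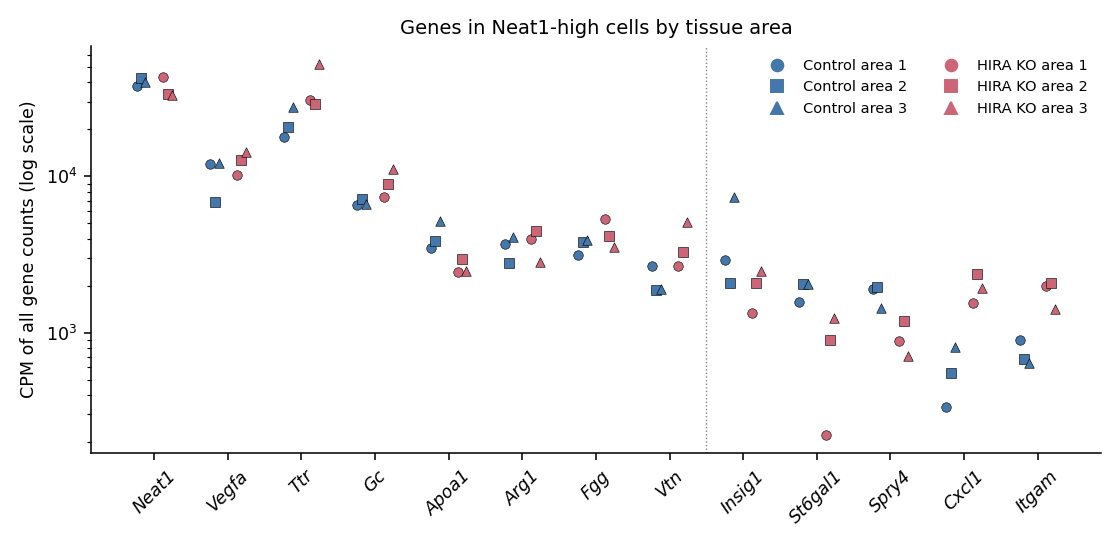
CPM of all gene counts (y axis, log scale) of the 8 genes of the rule (left of the dotted line) and the 5 genes with the lowest p (right) in Neat1-high cells, with 1 point for each tissue area, Control in blue and HIRA KO in red. Ttr lies higher and Apoa1 lower in the HIRA KO areas, and none of the 5 genes on the right passed the adjusted threshold.

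The surroundings of the cells were described by their neighbours. Among the 20 nearest hepatocyte-sized cells of a Neat1-high cell, 2.19%, 5.47% and 8.02% were also Neat1-high in Control areas 1, 2 and 3, against 1.51%, 3.18% and 6.57% around the other cells. In HIRA KO areas 1, 2 and 3 the values were 4.74%, 1.05% and 0.400% against 0.823%, 0.369% and 0.592%. The share was higher around Neat1-high cells in 5 of 6 areas, by 1.47 percentage points ± 1.46 (SD, n = 6, exact sign-flip p = 0.0625, adjusted p = 0.118). Cells under 10000 square pixels made up 43.2% ± 9.50 of the 20 nearest cells of any size, against 40% ± 7.08 (higher in 5 of 6 areas, exact sign-flip p = 0.0938, adjusted p = 0.159).

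Distances to 2 landmarks of the lobule were measured. Glul-high cells, which mark the surroundings of central veins, numbered 4 to 101 per area, and biliary cells, which mark portal tracts, 4 to 40. The median distance of Neat1-high cells to a Glul-high cell was longer than that of the other cells in 4 of 6 areas and shorter in 2 (exact sign-flip adjusted p = 0.483). The distance to a biliary cell was longer in 2 and shorter in 4 areas (exact adjusted p = 0.938). Neither gave a direction beyond the spread between areas. Median distances of Neat1-high cells reached 9882 pixels to a Glul-high cell and 4963 to a biliary cell, where a field of view is 4253 pixels wide. With landmarks so sparse in some areas, these distances cannot place the cells in the lobule, and a preferred zone was not tested. Distance to the border of the field of view, aspect ratio and negative probe counts per area of cell had exact adjusted p of 0.487, 0.721 and 0.896, and 69 Neat1-high cells lay within 100 pixels of a border.

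Between genotypes, 2 of the 17 measures of Neat1-high cells did not overlap. The nucleus took up 22.7% ± 0.917 of cell area in Control areas and 25.9% ± 0.419 in those of HIRA KO (SD, n = 3 areas each), beside 18.1% ± 0.501 and 21% ± 1.83 in the other cells. The log2 mean CD45 stain was 9.27 ± 0.08 and 9.47 ± 0.10, beside 9.44 ± 0.10 and 9.80 ± 0.15. Each had an exact permutation p of 0.1, the smallest possible, and an adjusted p of 0.680 over the 17 measures. The same 2 measures thus lay higher in HIRA KO areas in both kinds of cell, and their gaps between the kinds gave exact permutation p of 0.9 and 0.1.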

How the data were processed

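For 50 fields of view the authors deposited, for each segmented cell, its unnormalized counts of each target, a table of single transcripts with their compartment, and per cell stain intensity, area and position. Decoding and segmentation were done by the platform. Stain intensities were deposited as linear values, and any background subtraction, the pixel size and software versions are not given in the sources used here. Counts and transcript table were compared (0 cells differed), and 6.89% of transcripts outside cells were not used.

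Fields of view were grouped by genotype label and consecutive number into 6 tissue areas, the replicates, and their positions were checked (50 of 50 nearest to their own area). The study's methods name 3 biological replicates, which fits 3 areas per genotype, but the labels tie no area to a mouse, so p-values measure the spread between areas. The members, gene lists and tests were chosen with earlier results of these data known. Nucleus measures, lipid genes and comparisons at matched nucleus or cell area were added after values were seen.

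Shares were compared by exact permutation tests, cell measures by exact sign-flip tests over 6 areas with Benjamini-Hochberg adjustment. Measures are medians over the cells of an area, except neighbour shares (means) and nuclear percents (summed transcripts). Glul-high cells had at least 5 Glul counts and 4%, biliary cells at least 5 counts and 5% of 7 biliary markers. Gene counts were summed per area and tested with edgeR 4.0.16 (R 4.3.3, TMM, filterByExpr, quasi-likelihood), with DESeq2 1.42.0 as an alternative, and the test was run on simulated counts first. Standard errors are the fold change over the square root of F. The 8 genes of the rule entered the fits but no count of calls. Named are the genes of the rule, markers, up to 12 genes per direction among those over 4 times the highest negative probe with 1 direction in 6 areas, and the gene with the lowest p of each list, of which some are shown. Others are marked. Python 3.11.15 was used.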

Additional observations from a re-analysis of the deposited data

How the results depend on the processing

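The share of Neat1-high cells was lower in HIRA KO under all alternatives tried, which were 14 for the share of all cells and 15 for that of hepatocyte-sized cells. They changed the minimums of counts and area, both percent limits, depth, border, nucleus band and denominator, or left out areas. With Neat1 plus Vegfa at 8% or more only 25 cells remained, HIRA KO and Control areas overlapped, and the exact permutation p was 0.2. As a share of the cells that met the Neat1 and Vegfa criterion, which asks only about the secretory limit, they were 99.4% in Control and 91.1% in HIRA KO, with overlap (exact permutation p = 0.4). Leaving out 1 area at a time gave differences of -4.39 to -1.78 percentage points of hepatocyte-sized cells and of -2.69 to -1.28 of all cells.

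Genes called in Neat1-high cells numbered 0 of 124 with library size scaling and with slide row as a replicate block. They also numbered 0 of 124 with genes of the rule left out of totals and with DESeq2. With at least 50 counts per cell and without very large cells 0 were called too. The number was 1 of 990 without a filter on low counts (Saa1/2, log2 fold change 1.61, edgeR adjusted p = 0.0298). Without 1 area it was 0 to 1, with 84 to 293 genes tested. The cause was not tested. Members chosen on thinned cells left 7 genes to test and 0 calls. The numbers of genes tested were 123 and 115 with the 50-count minimum and without very large cells.

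No measure of the cells passed an adjusted p of 0.05 under any alternative, and with 5 areas the sign-flip test cannot reach it. Nuclear percent of transcripts outside the rule, DAPI, B2M and CD45 stains, nucleus percent and the nuclear percents of Neat1 and Vegfa kept their direction in 12 of 12 alternatives. The difference in nuclear transcripts was 1.85 points at matched nucleus percent and 21.8 against cells with secretory genes at 12% or more. The latter comparison had only 43 to 102 cells per Control area. Nucleus area was -45.8 square pixels at matched nucleus percent. Distances to Glul-high and biliary cells changed direction at stricter limits, with values in 5 and 3 areas. A comparison with cells that met the Neat1 and Vegfa limit but not the secretory one could not be made on 13 cells. The thin sums of HIRA KO areas, 3363 to 5655 counts, limit all genotype values.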

Other observations

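Smaller cells that met the count, Neat1 plus Vegfa and secretory criteria but not the area minimum numbered 102. Of the 580 Neat1-high cells 2 lay above 5 times the geometric mean of cell area, 10 had no count of the 6 secretory genes, and 1 was also Glul-high.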
